A study of Mus musculus with 5 samples.

Results

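Primary astrocyte cultures given amyloid-β peptide (Aβ) were compared with untreated cultures across all genes. Every gene with a value in the authors' deposited table was taken, 18783 of 18783, and 4 of the study's 5 libraries enter the comparison. The cells came from newborn (P0-P1) C57BL/6 pups and were grown in medium with horse and fetal bovine serum until day 12 in vitro. The Control group (2 libraries) was untreated, and the labels mention no vehicle. The Aβ group (2 libraries) received 1 µM Aβ on day 7 in vitro for 5 days, and the sources used here do not state the peptide's length or aggregation. Nor do they state whether replicate libraries are from separate cultures, so the p-values measure only a spread between libraries that may be technical.

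Astrocytes take up glutamate and potassium around synapses, supply lipids to neurons and become reactive after injury. Cultures from newborn brain usually also hold some microglia, the resident macrophages of the brain. Resting microglia express receptors such as P2RY12 and the transmembrane protein TMEM119. On meeting amyloid, dying cells or myelin they can take on a disease-associated state, in which these genes are lower and genes of phagocytosis, lysosomes and lipid handling are higher. Macrophages that take up much lipid show a related programme elsewhere in the body.

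The Control libraries had 49676004 and 49020833 reads, and the Aβ libraries 46886111 and 105544237. Reads lying fully within exons made up 84.5% to 85.2% of a library. Genes were measured here by group means in normalized units, so single libraries cannot be shown for single genes. Each log2 ratio below is that of the Aβ mean over the Control mean. A gene is called when its adjusted p in the authors' deposited table is under 0.05, and only called genes are said to rise or fall. Since the table gives no standard error, one was implied from each log2 ratio and its p-value under the assumption of a Wald test, and 95% intervals were built from it. A gene is called held when that interval lies inside 1.5-fold in both directions.

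Few genes were called and most abundant genes were held. In the authors' deposited table there were 54 called genes (0.287%): 21 (0.112%) rose with Aβ and 33 (0.176%) fell. A further view without adjustment found 324 genes (1.72%) at p under 0.05, 85 of them higher and 239 lower, while 76.6% of genes had a p over 0.5. Were p-values spread evenly, a larger share would lie under 0.05 and a smaller share over 0.5. The deposited p-values thus ran high, so few calls do not show that few genes changed. The implied standard errors rest on the same p-values. Of all 18783 genes, 11578 (61.6%) were held. Among the 9025 genes with a mean of at least 500, 8837 (97.9%) were held and 188 were not, and the quartiles of their log2 ratios lay at −0.04 and 0.05. The held genes carried 91.9% of the summed Control signal. Below a mean of 100 no gene could be held, since the median implied standard error was 1.30 under a mean of 10 and 0.39 between 50 and 100. For such low genes, missing a call does not show that the level stayed the same. At 0.287% called, a short list would seldom hold a call, and at 97.9% most of its abundant members would be held. Counts of called and held list members below are to be read beside these shares.

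**Figure D1:**
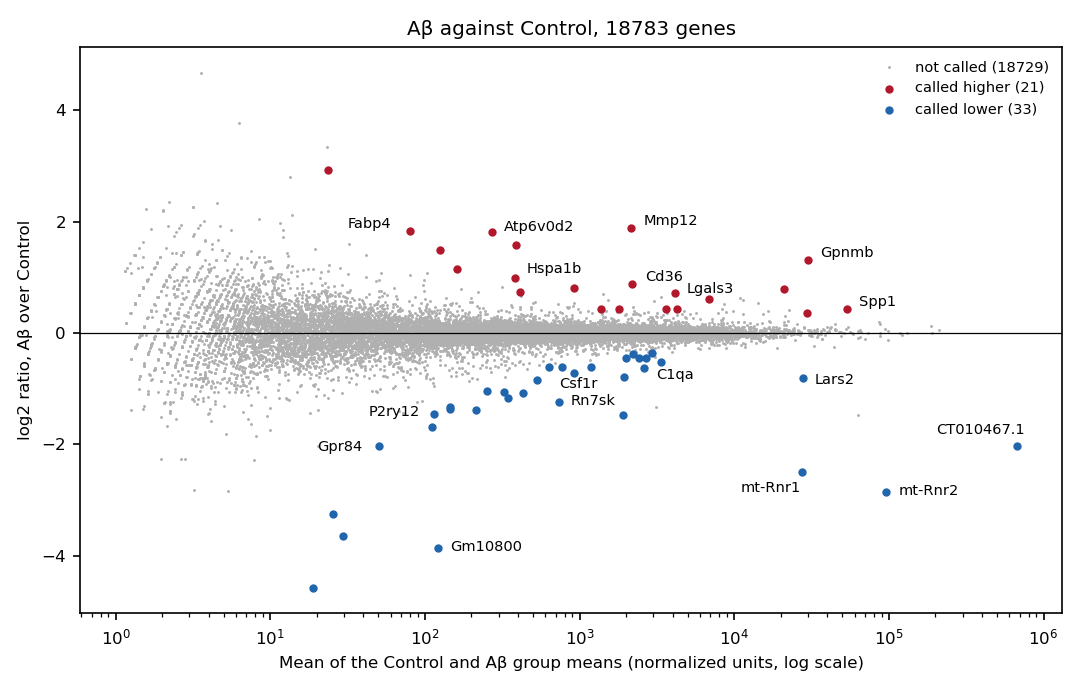
Each point is one of the 18783 genes, placed by the mean of its 2 group means (x, normalized units, log scale) and its log2 ratio of Aβ over Control (y). The 21 genes called higher (red) and the 33 called lower (blue) lie around a narrow band that closes on 0 as the level rises, and mt-Rnr1, mt-Rnr2 and CT010467.1 stand apart at high levels.

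The genes that rose were led by a set known from lipid-laden and tissue-remodelling macrophages. Of a list of 16 such genes, 13 were measured, 8 rose and none fell, against 0.112% of all genes, with a median log2 ratio of 0.73, against 0.0024 over all genes. Over the 9 members with a mean of at least 500 the median was 0.44. Members of this and the other lists were chosen with earlier results of these data known. Their shares of called genes therefore describe the lists and are no test of them. Mmp12, macrophage elastase, which cuts elastin and other matrix proteins, averaged 921 in Control against 3410 with Aβ by the authors' deposited table, a 3.70-fold rise (log2 ratio 1.89, 95% interval 1.68 to 2.09, adjusted p = 1.48e-67 by DESeq2). Gpnmb, a membrane glycoprotein of phagocyte lysosomes, went from 17328 to 42816 by the authors' deposited table, a 2.47-fold rise with an interval of 1.13 to 1.48 on the log2 scale. Atp6v0d2, a subunit of the proton pump found in macrophages and osteoclasts, went from 120 to 423 by the authors' deposited table, 3.52-fold higher. Anpep, a surface aminopeptidase, went from 196 to 584 (2.98-fold) by the authors' deposited table.

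The other called members of that list handle lipid or carry sugar-binding and matrix functions. Cd36, a scavenger receptor that binds oxidised lipids and also fibrillar Aβ, went from 1544 to 2851 by the authors' deposited table (log2 ratio 0.88). Fabp4, a fatty acid carrier, had means of 35 and 124 by the authors' deposited table, with a wide interval of 1.02 to 2.63. Lgals3, the sugar-binding galectin-3, went from 3101 to 5126 by the authors' deposited table (log2 ratio 0.73), and Spp1, the secreted glycoprotein osteopontin, from 45593 to 61668 (0.44). The 5 members that did not pass were Cd9, Lpl, Mgll, Pparg and Trem2, named here after their values were seen, at −0.08, −0.02, 0.01, 0.11 and 0.15. Of the 13 measured members 4 were held, all of them uncalled, among them Cd9, Trem2 and Lpl, the last encoding lipoprotein lipase.

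The list of disease-associated microglia shares 4 of its called genes with the preceding one. Of its 34 genes 33 were measured, 6 rose, against 0.112% of all genes, none fell, and the median was 0.16, with 26 members above 0 and 7 below. Besides Gpnmb, Cd36, Lgals3 and Spp1, the called members were Lyz2, lysozyme, at 25844 in Control against 33225 with Aβ by the authors' deposited table (log2 ratio 0.36), and Plin2, the coat protein of lipid droplets, at 3623 and 4869 (0.43). Lyz2 was both called and held, that is, its rise was smaller than 1.5-fold with 95% confidence. The members with the highest levels had small ratios: Ctsd lay at 0.20, Ctsb at 0.16 and Fth1 at 0.06, none of them called. Of the defining receptor pair, Trem2 lay at 0.15 (interval −0.09 to 0.38) and its adaptor Tyrobp at 0.19 (−0.05 to 0.43), both held and named after their values were seen. Itgax, the integrin CD11c, had an uncalled ratio of 1.00 at means of 27.7 and 55.3 by the authors' deposited table. Against the direction of the list, Ch25h, cholesterol 25-hydroxylase, lay at −1.44 and Cd52 at −0.73, also uncalled and chosen after their values were seen.

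Below are the promoters of the called genes with the highest means in each direction among those with a RefSeq window, shown as examples of where the motifs counted next were searched. Each window runs from 250 bases before to 50 after the RefSeq start in GRCm38.p6, 5′ to 3′ on the gene's strand, with motif matches in capitals.
Spp1, chr5:104434861-104435160, plus strand: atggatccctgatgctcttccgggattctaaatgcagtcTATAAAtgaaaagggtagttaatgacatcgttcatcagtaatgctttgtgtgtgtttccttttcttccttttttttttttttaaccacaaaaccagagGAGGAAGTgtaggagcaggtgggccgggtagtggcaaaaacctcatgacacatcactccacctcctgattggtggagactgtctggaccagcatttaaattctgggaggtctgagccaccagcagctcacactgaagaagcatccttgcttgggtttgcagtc
Gpnmb, chr6:49036268-49036567, plus strand: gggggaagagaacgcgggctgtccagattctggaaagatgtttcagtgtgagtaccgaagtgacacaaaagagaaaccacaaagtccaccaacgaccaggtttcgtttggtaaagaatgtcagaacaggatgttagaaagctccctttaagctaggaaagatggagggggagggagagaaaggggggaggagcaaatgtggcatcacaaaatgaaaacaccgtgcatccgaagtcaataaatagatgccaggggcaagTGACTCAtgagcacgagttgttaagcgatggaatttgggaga
Lars2, chr9:123366677-123366976, plus strand: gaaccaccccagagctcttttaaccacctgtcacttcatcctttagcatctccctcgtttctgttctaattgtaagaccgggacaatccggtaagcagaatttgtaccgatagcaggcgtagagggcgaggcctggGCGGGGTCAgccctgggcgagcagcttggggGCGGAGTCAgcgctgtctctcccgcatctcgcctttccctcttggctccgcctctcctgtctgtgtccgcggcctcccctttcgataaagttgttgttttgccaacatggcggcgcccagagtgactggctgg
Laptm5, chr4:130913066-130913365, plus strand: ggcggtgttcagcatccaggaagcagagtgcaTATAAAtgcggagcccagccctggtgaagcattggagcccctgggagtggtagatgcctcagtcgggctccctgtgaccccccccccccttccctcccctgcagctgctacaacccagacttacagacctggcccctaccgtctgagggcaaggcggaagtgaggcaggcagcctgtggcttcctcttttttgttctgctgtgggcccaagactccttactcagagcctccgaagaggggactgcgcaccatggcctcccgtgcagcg
In Spp1 the capitals mark the letters of a TATA box (TATAAA) and the core bound by the myeloid factor PU.1 (GAGGAAGT). In Gpnmb they mark an AP-1 site (TGANTCA), in Lars2 antioxidant elements on the opposite strand (TGACNNNGC), and in Laptm5 the TATA letters. The TATA letters begin at base 40 in Spp1 and base 33 in Laptm5, far before the RefSeq start, which follows base 250. In the GRCm38 gene annotation, however, Laptm5 begins earlier, at 130913125, shortly after its TATA letters. All motifs were searched on both strands. Promoters were matched for 12347 genes of the table, 14 of those that rose and 18 of those that fell. The PU.1 core was in 2 of the 14 (Mmp12, Spp1) and in 4 of the 18 (C1qc, Ctsc, Pld4, Slco2b1), against 2.91% of all matched promoters. The AP-1 site was in 1 of the 14 and 1 of the 18, against 5.37% of all, and the E-box of lysosomal genes (CACGTG) likewise in 1 and 1 (Plin2 and P2ry12), against 9.61%. The TATA letters were in 2 of the 14 and 4 of the 18, against 7.56% of all. Antioxidant elements were in 1 of the 14 and 4 of the 18, against 14.5%. Such matches are letters in a window and not evidence of binding.

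Markers of resting microglia were among the genes that fell, though the largest falls were in other features, described further below. Of 24 genes listed for that state, 21 were measured, 6 fell and none rose, against 0.176% of all genes, and 20 of the 21 lay below 0 with a median of −0.39. Csf1r, the growth factor receptor on which microglia depend, went from 2463 to 1418 by the authors' deposited table, a 1.74-fold fall (interval −1.04 to −0.55, adjusted p = 1.82e-07 by DESeq2). P2ry12, the purine receptor that guides their processes to damage, went from 209 to 80.9 by the authors' deposited table, 2.59-fold lower. Tmem119 went from 208 to 82.5 and Gpr34, a lysophosphatidylserine receptor, from 312 to 119 by the authors' deposited table. Slco2b1, an organic anion carrier, went from 170 to 52.6 by the authors' deposited table (log2 ratio −1.69). Fcrls, an Fc receptor-like protein, went from 2814 to 1016 by the authors' deposited table, but its implied standard error of 0.36 was over 2 times that usual at its level. The same width marked Cx3cr1, the fractalkine receptor, which went from 4455 to 1773 (log2 ratio −1.33) and was not called (adjusted p = 0.0893 by DESeq2 by the authors' deposited table).

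Among the 13 members with a mean of at least 500 the median was closer to 0, at −0.15, and 8 of them were held. One of these was Rhob, a small GTPase, at −0.03. Without adjustment 13 of the 21 members had p under 0.05, against the 1.72% of all genes given above.

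Genes expressed across leukocytes mostly lay below 0, with few calls. Of 33 listed and measured genes, 3 fell, against 0.176% of all genes, none rose, and 28 lay below 0 with a median of −0.36. Over the 19 members with a mean of at least 500 the median was −0.26. The difference from the resting microglia list was not tested. Ly86, a partner of a Toll-like receptor homologue, went from 586 to 278 by the authors' deposited table, Laptm5, a lysosomal membrane protein of blood cells, from 3988 to 2769, and Ncf1, a subunit of the phagocyte oxidase, from 929 to 611. The pan-leukocyte phosphatase Ptprc lay at −0.26 (interval −0.56 to 0.03), the integrin Itgam at −0.38, the lineage factor Spi1 at −0.33 and Aif1, which encodes IBA1, at −0.97, none called and all named after their values were seen. With 100 added to both means Aif1 lay at −0.41. Cd68, a lysosomal glycoprotein of macrophages, lay on the other side at 0.33 and was held. Summed over the list, the level went from 31480 to 26548, whereas the sum over the lipid-associated list went from 92424 to 139942. Most of the latter rise came from 2 members, Gpnmb (17328 to 42816) and Spp1 (45593 to 61668). In bulk RNA, fewer cells of a type and less RNA per cell cannot be told apart.

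Taking 5 microglia and macrophage lists as 1 set of 99 measured genes, 10 rose and 9 fell, and 54 had an unadjusted p under 0.05, 19 higher and 35 lower. Among the remaining 18684 genes, 11 rose and 24 fell, and 270 had an unadjusted p under 0.05, 66 higher and 204 lower. Because the lists were chosen with earlier results known, this split is no test either. Genes of border-associated macrophages and monocytes gave no call: 9 of 18 were measured, 8 lay below 0 and the median was −0.27. F13a1, coagulation factor XIII, lay at −0.77 (unadjusted p = 0.0072 by the authors' deposited table). Of 20 markers of lymphocytes, mast cells and neutrophils, 19 were not in the table.

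Of the 18 purine receptors and ectonucleotidases, P2ry12 fell and no other was called. P2ry13 lay at −1.24 and P2ry6 at −0.54 (unadjusted p = 0.00073 and 0.0074 by the authors' deposited table), while P2ry1, Entpd1 and Adora1, which other glia also express, lay at 0.01, 0.01 and −0.0022. None of 21 measured TGF-β targets and receptors was called, where 0.287% of all genes were. Of the 21, 16 lay above 0 and 5 below, with a median of 0.06. The receptor chains Tgfbr1 and Tgfbr2 lay at −0.34 and −0.32, and Acta2, smooth muscle actin, at 0.02. The list of osteoclast and giant cell genes split: of 9 measured genes Atp6v0d2 rose and Tnfrsf11a, the receptor RANK, fell by 1.04, while Nfatc1 and Ckb were held.

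The remaining called genes were of several kinds. Lilr4b, a receptor of myeloid cells, rose from 675 to 1179 and Mamdc2 from 1167 to 1577, both taken from the authors' deposited table. Pld4, an exonuclease of phagocytes, fell by 1.06 on the log2 scale, and Hpgd, which inactivates prostaglandins, by 0.71. Ly6e, a surface protein, fell by 0.60, Ucp2, a mitochondrial carrier, by 0.44, and Cflar, an inhibitor of caspase-8, by 0.36, a fall small enough to be held. Cdr1os, a long noncoding RNA, fell by 1.16, and Gm9299, a processed pseudogene at means of 5.54 and 42.0 by the authors' deposited table, rose.

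**Figure D2:**
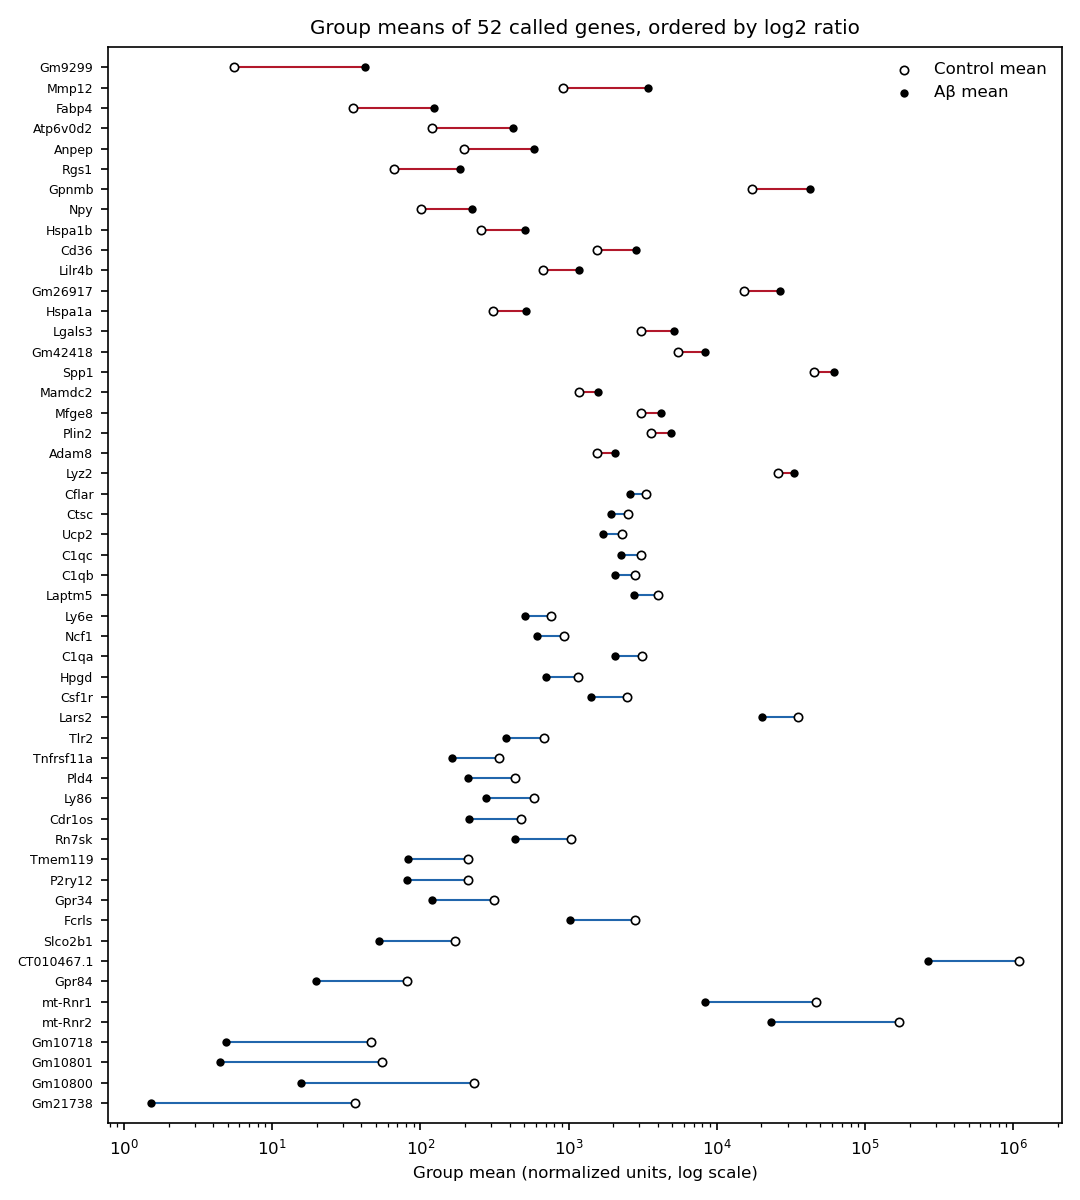
Group means of 52 of the called genes in Control (open) and Aβ (filled) on a log scale in normalized units, ordered by log2 ratio, with red lines for those that rose and blue for those that fell. No error is drawn because only group means were used; above a mean of 5000 the widest gaps drawn are those of mt-Rnr2, mt-Rnr1, CT010467.1 and Gpnmb.

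**Figure D3:**
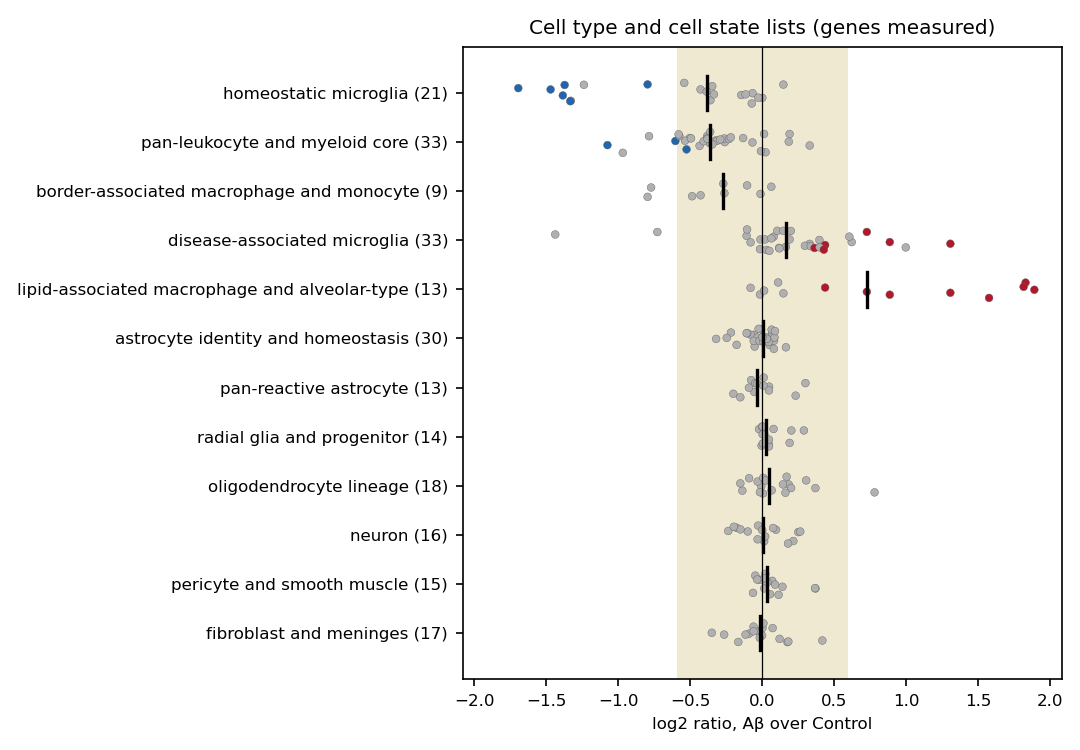
Log2 ratios (x) of the measured members of 12 cell type and cell state lists (rows, number measured in brackets), with called genes in red (higher) or blue (lower), the median as a black bar and the range within 1.5-fold shaded. The medians of the microglial and leukocyte lists lie left of 0, those of the disease-associated and lipid-associated lists right of it, and those of the other 7 lists lie between −0.04 and 0.05.

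Astrocyte genes stayed flat, as most abundant genes did. All 30 genes of the identity list were measured, none was called, 25 were held, and the median was 0.0039. With 0.287% of all genes called, a list of this size would seldom hold one. Of its 24 members with a mean of at least 500, 23 were held, against 97.9% of all such genes. The summed level of the 30 genes was 436683 in Control and 435103 in Aβ, so the cultures carried the defining markers of their label in both groups. Gfap, the intermediate filament of astrocytes, had means of 57209 and 57495 by the authors' deposited table (interval −0.16 to 0.18). The glutamate transporter Slc1a3 lay at 0.05, Apoe at −0.11 and the other glutamate transporter, Slc1a2, at −0.22 (unadjusted p = 0.0121 by the authors' deposited table), all 3 held.

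Reactive astrocyte programmes gave no call, where 0.287% of all genes were called, so lists of these sizes would seldom hold one. Of 13 pan-reactive astrocyte genes none was called and 11 were held: Vim lay at 0.05, Serpina3n at −0.15, Cd44 at −0.20 and Lcn2 at 0.23. Of 12 measured genes linked to the inflammatory A1 state, 9 were held and 8 lay below 0 (median −0.10), with complement C3 at 0.07, and of 11 linked to the A2 state, 9 were held (median −0.0095). Among 20 secreted or surface factors that act on synapses and neurons, 16 were held, among them Sparc at means of 131061 and 131067 by the authors' deposited table and Thbs1 at 0.04. Lists of oligodendrocyte, neuronal, endothelial, pericyte, fibroblast and ependymal genes held no called gene, with medians from −0.02 to 0.07.

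Innate signalling genes changed at single points. Of 21 Toll-like receptors and adaptors, Tlr2 fell from 681 to 378 by the authors' deposited table (log2 ratio −0.85), no other was called, and 18 lay below 0 with a median of −0.09. Among the complement genes, C1qa, C1qb and C1qc, neighbours on chromosome 4 (136880129 to 136898803 in GRCm38) that encode the chains of C1q, fell by 0.62, 0.45 and 0.44 on the log2 scale, and their sum went from 9017 to 6352. C3ar1 lay at 0.06 and Clu at −0.04. Gpr84, a receptor for medium-chain fatty acids, fell by 2.03, from 80.7 to 19.8 by the authors' deposited table.

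Cytokine and interferon genes gave no call, where 0.287% of all genes were called, so lists of these sizes would seldom hold one. None of 22 measured NF-κB targets, 25 type I interferon genes, 16 genes of antigen presentation, 18 chemokines or 10 interleukins passed, with list medians between −0.08 and 0.08. Tnf lay at −0.67 with means of 30.3 and 19.1 by the authors' deposited table and an interval of −1.95 to 0.61, so a change of this size was not detectable for this gene. Ccl3, a macrophage chemokine, lay at 0.62 (unadjusted p = 0.017 by the authors' deposited table). Genes at higher levels were measured more tightly: B2m, the light chain of class I molecules, had means of 10987 and 10966 by the authors' deposited table.

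Lysosomal genes were nearly all held despite the rise of Gpnmb and Atp6v0d2, as were 97.9% of all genes with a mean of at least 500. Of 44 hydrolases and membrane proteins, 43 were held and none was called, with 31 above 0 and a median of 0.05; Lamp1 lay at 0.03, Lamp2 at −0.03 and Psap at 0.11. Of 21 subunits of the proton pump, Atp6v0d2 was the one that passed, 19 were held and the median was 0.09. Atp6v0c and Atp6v1a, which are widely expressed, lay at 0.11 and 0.07. Among 14 cathepsins and cystatins, Ctsc fell by 0.39 and was still held, whereas Ctsl lay at 0.30 (adjusted p = 0.0910 by DESeq2 by the authors' deposited table). All 25 autophagy genes were held, with Sqstm1 at 0.10.

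Of 35 measured genes of lipid uptake, droplets and fatty acids, Cd36, Plin2 and Fabp4 rose, 26 genes were held and the median was 0.05. All 24 measured genes of cholesterol synthesis were held, with Hmgcs1 at −0.11. Targets of the sterol-sensing LXR receptors were not called (14 measured, median −0.05). Abca1, the cholesterol exporter, lay at 0.40 with an interval of −0.35 to 1.14. Mfge8, a bridge between dying cells and phagocytes, had means of 3092 and 4173 by the authors' deposited table and rose by 0.43 on the log2 scale.

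Stress genes moved at the Hspa1 pair. Of 22 cytosolic heat shock genes, Hspa1a and Hspa1b rose, and the other 20 were held. Hspa1a went from 307 to 513 and Hspa1b from 257 to 506 by the authors' deposited table. They are near-identical neighbours on chromosome 17 (34956436 to 34972156 in GRCm38) that share 1928 stretches of 25 bases, so the split between them is uncertain, and their sum went from 565 to 1020 (log2 ratio 0.85). Both promoters held the heat shock motif GAANNTTC, as did 3 of the 18 matched promoters of genes that fell (C1qb, Hpgd and Pld4) and 5.73% of all matched promoters. None of 33 genes of the unfolded protein response was called, where 0.287% of all genes were, and 30 were held. Of 26 NRF2 and glutathione genes none was called and 24 lay above 0 (median 0.06), without allowance for transcript length, taken up further below. Hmox1, haem oxygenase, lay at 0.36 and the cystine carrier Slc7a11 at 0.54 (adjusted p = 0.135 and 0.260 by DESeq2 by the authors' deposited table).

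Machinery shared by all cells was flat, as were most abundant genes: 97.9% of all genes with a mean of at least 500 were held. Held genes numbered 77 of 87 cytosolic ribosomal proteins, 77 of 78 mitochondrial ribosomal proteins, 35 of 36 complex I subunits, 36 of 37 proteasome subunits and 48 of 50 translation initiation factors. All 13 mRNAs encoded by the mitochondrial genome, all 22 genes of the citric acid cycle and all 25 genes of G1/S and DNA replication were held. Of 26 mitotic genes 24 were held, and Mki67 and Cenpf, the exceptions, lay at 0.16 and 0.22 with wide intervals. All 20 actin and tubulin genes and 19 of 20 reference genes were held; Actb lay at −0.03, Eef1a1 at 0.01 and Gapdh at 0.12. Of 20 measured polyamine genes none was called and 19 were held, with Odc1, ornithine decarboxylase, at 0.09. Of 25 genes of amyloid precursor and its processing none was called and 23 were held, with App at 0.07.

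**Figure D4:**
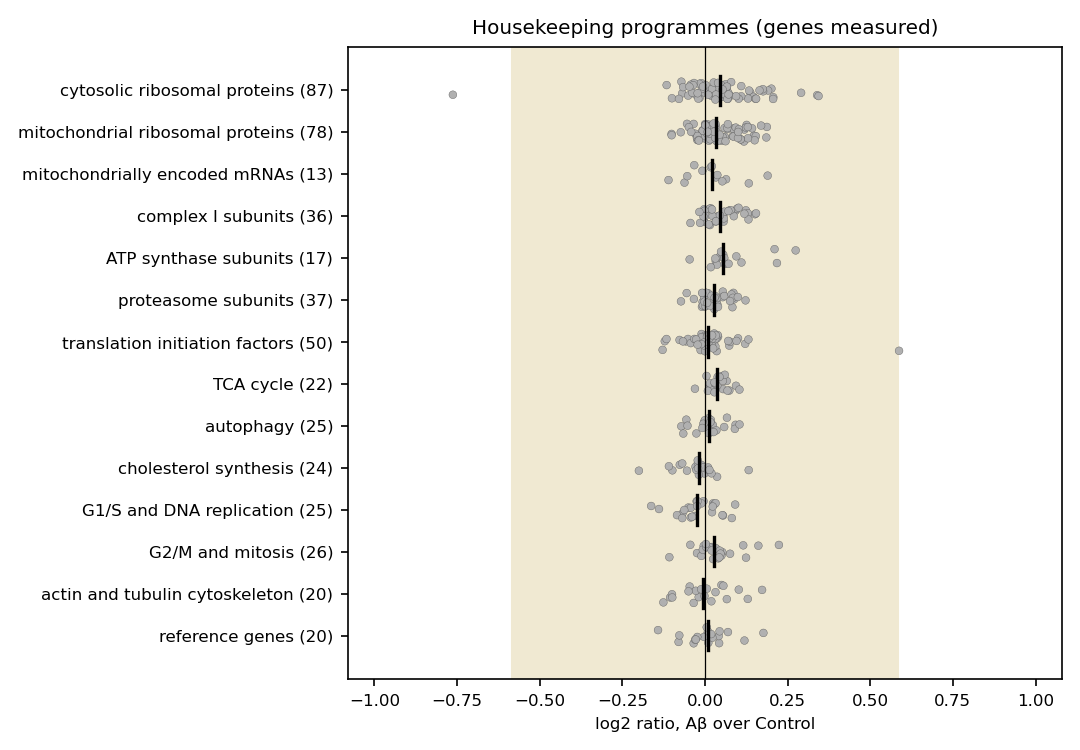
Log2 ratios (x) of the members of 14 housekeeping programmes (rows, number measured in brackets), with the median as a black bar and the range within 1.5-fold shaded. All points are grey because no member was called, and the medians lie between −0.02 and 0.06.

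Several large families held no called gene, where 0.287% of all genes were called. At that share, families of these sizes would hold few called genes or none. None of 265 solute carriers named Slc without the organic anion group, 372 zinc finger proteins, 85 cadherins, 67 Rab GTPases or 68 potassium channels was called, and 188, 290, 44, 52 and 23 of them were held. Matrix metalloproteases numbered 14, of which Mmp12 rose; Mmp13, collagenase-3, lay at 1.40 at means of 22.99 and 60.7 by the authors' deposited table and was not called, and Mmp2 and Mmp14 were held. Of 17 ADAM proteases, Adam8 rose by 0.42, and of 20 regulators of G-protein signalling, Rgs1 rose, with means of 66.4 and 186 by the authors' deposited table. Npy, neuropeptide Y, had means of 100.3 and 222 by the authors' deposited table and rose 2.21-fold.

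The largest falls at high level were in ribosomal RNA, in libraries enriched for polyadenylated RNA. CT010467.1, the annotated rRNA on chromosome 17 (39846353 to 39848827, minus strand, GRCm38), went from 3.57% to 0.906% of the summed signal. The mean of the largest normalized value in each Control library, 1042210 and 1133110, equals the Control mean of CT010467.1 within rounding, so these were taken as its values. If the larger Aβ maximum, 348846, is also this feature, the other Aβ library held 186954, under its own maximum of 213007. The groups do not overlap on these values, and an exact two-sided permutation test of 2 against 2 cannot go below 0.333. The mitochondrial rRNAs mt-Rnr1 and mt-Rnr2 together went from 215329 to 31608 (log2 ratio −2.77), while the 13 mitochondrial mRNAs were held.

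Gm26917 and Gm42418, on the plus strand of the same chromosome 17 locus, rose by 0.80 and 0.61. Gm42418 holds the reverse complement of 1753 of the 2466 stretches of 25 bases in CT010467.1, so reads of these 2 cannot be told apart without strand, and the sources used here do not state how strand was counted. AY036118 lies wholly inside CT010467.1 on the same strand, so strand would not separate that pair. Together these 6 features made up 4.65% of the Control signal and 1.24% of the Aβ signal. Rn7sk, the 7SK RNA, which is not polyadenylated, went from 1032 to 436 by the authors' deposited table. Gm10800, Gm10801, Gm10718 and Gm21738, which share stretches of 25 bases with each other, together went from 366 to 26.5. Lars2, mitochondrial leucyl-tRNA synthetase, fell from 35293 to 20109 by the authors' deposited table, as the sole called gene among 37 aminoacyl-tRNA synthetases, of which 34 were held. Groups overlapped in the share of reads within exons (84.87% and 84.49% in Control, 85.18% and 84.54% in Aβ). They also overlapped in the share within introns (3.29% and 3.53% against 3.22% and 3.88%). The share of reads between genes was 2.14% and 2.45% in Control and 1.71% and 1.65% in Aβ, with no overlap between groups. For this share too, an exact two-sided permutation test cannot go below 0.333. Whether these differences in RNA makeup bear on any gene named above was not tested.

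Transcript length went with the width of the estimates. Of 8953 genes with a mean of at least 500 and a known length, 164 had an implied standard error over 2 times that usual at their level, and 122 of them lay among the longest 895 genes, of 7385 bases or more. Of those 122, 117 lay above 0, with a median of 0.24. Of the 895, 47 were over 25% higher in Aβ and 4 over 20% lower, 102 were not held, and none was called. Lrp1, the endocytic receptor for lipoproteins and Aβ, went from 8566 to 13211 by the authors' deposited table (log2 ratio 0.63), but its interval ran from −0.29 to 1.54. Lrp2 (0.70), Hspg2 (0.65), Fat1 (0.60), Fbn1 (0.59), Macf1 (0.54) and Dync1h1 (0.52), named after their values were seen, showed the same pattern. Of the shortest 896 genes, 71.8% lay above 0, though the median was 0.04. Among 10 groups ordered by length, the share above 0 was 38.2% in group 8 and 58.5% in group 10, the longest. Counts of list members above or below 0 were not matched for length. Of the 22 measured genes of the basement membrane, many of them long, 19 lay above 0 (median 0.18), none was called and 13 were held. Without members of 7385 bases or more the median was 0.09.

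**Figure D5:**
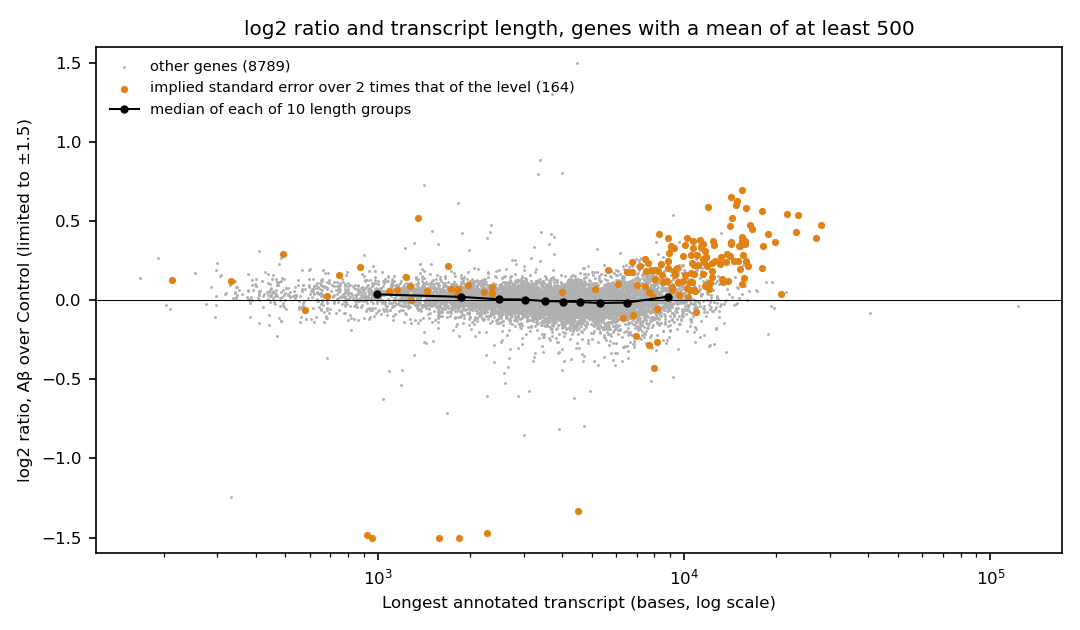
Log2 ratio of Aβ over Control (y, limited to ±1.5) against the longest annotated transcript (x, bases, log scale) for genes with a mean of at least 500. Orange marks the 164 genes with a wide implied standard error, which gather at the upper right among the longest transcripts, and the black line joins the medians of 10 equal groups by length, which stay between −0.02 and 0.04.

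The authors' deposited table of pathways also centred on no difference. Of the 242 gene sets in it, 221 had a ratio of set means within 5% of 1, 14 lay above and 7 below. The lowest ratio was that of ribosome biogenesis at 0.405 (adjusted p = 0.771) by the authors' deposited table, where the difference in the set's summed level, 182329, was close to the 183722 of mt-Rnr1 and mt-Rnr2 together. Aminoacyl-tRNA biosynthesis followed at 0.857 (adjusted p = 0.656) by the authors' deposited table, a difference of 13824 against 15184 for Lars2 alone. Below 1 with a small adjusted p lay viral protein interaction with cytokine and cytokine receptor at 0.915 (adjusted p = 6.4e-06), Staphylococcus aureus infection at 0.898 (0.00317), inflammatory bowel disease at 0.949 (0.00141) and mucin type O-glycan biosynthesis at 0.949 (0.00317), all by the authors' deposited table. The sets of Toll-like receptor signalling and ECM-receptor interaction lay at 1.07 and 1.10 (adjusted p = 0.00013 and 0.0140) by the authors' deposited table; the members of the sets are not listed there. A ratio of set means weighs members by their level. The ratio for Toll-like receptor signalling therefore cannot be set against the 18 of 21 receptors and adaptors that lay below 0.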

How the data were processed

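RNA of 2 Control and 2 Aβ libraries was compared, and the group mean of the fifth library was not used. The sources used here do not state whether that library shared the authors' normalization or fit, on which the p-values rest. The submitters' processing notes name STAR 2.7.3a, Partek, FastQC and DESeq2, and the builds mm10 and GRCm39, with no role for each. The sources used here state no counter, annotation, strand setting or filter. The authors deposited, per the file headers, least-squares group means (a normalized signal of unstated scaling), their ratio, the log2 ratio and a signed fold change (a score), and p-values with step-up adjustment; pathway p-values and ratios; and quartiles of the normalized signal per library. The authors also deposited the percent of each library's reads by gene region, per the file headers. No values per library and gene were used, so the edgeR fit planned for counts was not possible and the authors' DESeq2 p-values stand.

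The deposited log2 ratios and adjusted p-values were recomputed and matched. The implied standard error is the size of the log2 ratio over the normal deviate of its p; intervals use the larger of this and its running median over 501 genes of like mean. These scripts were tested on simulated data. Lists numbered 63 and families, matched by symbol pattern, 56. Members and lists were chosen with earlier results of these data known. Named genes are called genes, and of each list up to 3 with the smallest p and up to 3 with the highest mean; others are marked as named after their values were seen. Lengths are of the longest transcript in the GRCm38 annotation (18459 genes), and promoters are from RefSeq. Depth sets precision: the median implied standard error was 0.08 above a mean of 5000 and 1.30 below 10. Python 3.11.15, pandas 2.3.3, numpy 2.4.6 and scipy 1.17.1 were used. Alternatives were other thresholds, level filters, centring, added constants and interval limits. The values of some genes are not reported here.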

Additional observations from a re-analysis of the deposited data

How the results depend on the processing

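Only group means were used, so no library could be left out, and no result above has been tried without 1 of the 4 libraries. No paired analysis was possible because the table carries no value per library. At an unadjusted p under 0.05 the counts became 85 higher and 239 lower. Adjusting over the genes with a mean of at least 500 alone gave 13 higher and 20 lower, fewer because called genes below that level were left out. Stricter and looser adjusted thresholds, the other level filter and a 1.5-fold minimum kept both counts within 1.5 times. An adjustment without ribosomal and small nuclear RNA, predicted genes and pseudogenes, chosen after seeing the data, gave 18 higher and 24 lower. A limit of 25% in place of 1.5-fold held 6709 genes. Centring on the median moved log2 ratios by 0.0025, and no called gene changed direction under it or with 10 or 100 added to both means, though 100 shrank 14 of their log2 ratios by over 1.5 times. Leaving out members of 7385 bases or more, also added later, moved no list median by as much as the median standard error of its members; keeping members with a mean of at least 500 alone moved 3 list medians that far, resting microglia (−0.39 to −0.15), lipid-associated macrophages (0.73 to 0.44) and C-type lectins (to 0.24), and 108 less. Depth limits what can be said below a mean of 100, where no gene could be held.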
